A study of Mus musculus with 2 samples.

Results

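The barcodes described here are E14 nuclei in which the secreted glycoprotein gene Reln and the p53 family gene Trp73 were counted together, a pair of genes that marks Cajal-Retzius neurons. They were chosen by measured values: at least 1000 UMIs (unique molecular identifiers, each marking 1 captured RNA molecule), under 5% of UMIs from mitochondrial genes, at least 3 Reln UMIs and at least 1 Trp73 UMI. The rule found 232 members among 7997 barcodes that passed the depth and mitochondrial limits, which is 2.90% (exact binomial 95% interval 2.54 to 3.29), of 9037 barcodes in the library and 10698 in the series. Because Reln and Trp73 chose the members, their levels are a description and were not tested.

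The study used Slide-tags, in which nuclei in a tissue section take up spatial DNA barcodes and are then profiled by droplet single-nucleus RNA sequencing. The nuclei came from a sagittal brain section of untreated C57BL/6J mouse embryos at embryonic day 14, bought as snap-frozen whole embryos, and 1 library was made. The series also holds 1 library of the hippocampus of an untreated male C57BL/6J mouse aged 56 days. Nuclei of 1 library are not replicates, so no comparison was tested, and every interval below covers counting error only. Where in the section each nucleus lay was not used here.

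Cajal-Retzius neurons are among the first neurons of the cortex. They arise at the borders of the cortical sheet, chiefly at the cortical hem, migrate below the pia and release reelin, which binds the receptors Vldlr and Lrp8 on migrating neurons and acts through the adaptor Dab1 to set cortical layers. Trp73 encodes p73, known in these neurons as a survival factor and, in other cells, as a regulator of multiciliated cells such as those of the choroid plexus.

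The sequences before the starts of Reln and Trp73, which chose the barcodes, and of the early B-cell factor gene Ebf3, which was high in them, are shown because Reln and Ebf3 carry the letters CCCNNGGG, the core of sites bound by early B-cell factors. Each line gives the 250 bases before a RefSeq start on GRCm38.p6, 5′ to 3′ on the gene's strand, with the letters of a searched motif in capitals (CCCNNGGG in Reln and Ebf3, the E-box CAGCTG in Trp73). The 250 bases before a start of Nhlh2, Cxcr4, Lhx1, Kcnj5, Lrig3 and Cacna2d2 held none of the searched motifs and are not shown. Reln is at chr5:22344706-22344955 and Ebf3 at chr7:137314446-137314695. Trp73 has a distal start, at chr4:154139876-154140125, and an internal one, at chr4:154097174-154097423, from which a shorter protein without the activation domain is known to be made. All are on the minus strand, and the deposited counts do not separate the Trp73 starts.
Reln: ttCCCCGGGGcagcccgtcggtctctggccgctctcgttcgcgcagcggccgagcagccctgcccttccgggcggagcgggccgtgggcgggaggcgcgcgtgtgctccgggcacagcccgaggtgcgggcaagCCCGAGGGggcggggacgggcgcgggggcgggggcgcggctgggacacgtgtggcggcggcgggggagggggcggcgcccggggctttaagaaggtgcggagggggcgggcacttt
Ebf3: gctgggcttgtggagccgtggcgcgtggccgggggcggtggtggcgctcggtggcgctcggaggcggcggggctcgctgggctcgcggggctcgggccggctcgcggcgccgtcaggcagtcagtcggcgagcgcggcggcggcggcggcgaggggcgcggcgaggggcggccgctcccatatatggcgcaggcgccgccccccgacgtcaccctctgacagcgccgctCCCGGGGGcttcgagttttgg
Trp73, distal start: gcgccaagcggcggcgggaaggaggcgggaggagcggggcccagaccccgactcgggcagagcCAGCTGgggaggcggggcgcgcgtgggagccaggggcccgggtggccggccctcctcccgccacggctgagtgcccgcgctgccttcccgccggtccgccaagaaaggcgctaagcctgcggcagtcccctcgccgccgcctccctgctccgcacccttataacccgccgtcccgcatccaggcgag
Trp73, internal start: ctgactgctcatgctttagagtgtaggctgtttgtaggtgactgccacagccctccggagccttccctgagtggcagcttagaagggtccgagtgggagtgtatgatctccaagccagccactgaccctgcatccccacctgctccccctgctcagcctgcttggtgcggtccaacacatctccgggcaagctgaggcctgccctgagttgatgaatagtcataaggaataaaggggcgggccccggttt

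The gene pair alone did not pick out a uniform population. When all 7997 barcodes were clustered with Reln and Trp73 left out of the clustering, 98 of the 232 members (42.2%, interval 35.8 to 48.9) fell into 1 cluster of 134 barcodes. The other 134 members fell into other clusters, and 19 of the 24 clusters held at least 1 member. The cluster was led by Smoc2, which encodes a secreted matrix protein and is a Cajal-Retzius marker, followed by Gm16110, Gm10475, Rspo3, Lgr5, Nhlh2, Pde1a, Ccbe1, Eya2 and Lrig3. Gm16110 and Gm10475 are antisense genes inside Reln that were not withheld from the clustering, and their reads cannot be told apart from Reln reads. The clustering is thus not shown to be free of the Reln count. Against all other barcodes the cluster held 67.1-fold more Smoc2 and 5.83-fold more Ebf2. Of the genes left out of the clustering it held 40.2-fold more Reln and 57.4-fold more Trp73. The fifth marker, Ndnf, was not higher in it, at a ratio of 0.791. Reln and Trp73 also chose most of its barcodes, so their excess is no separate support, and of the other 3 markers Smoc2 and Ebf2 were raised. Smoc2 and Ebf2 were not withheld from the clustering, so their rise describes the cluster and is no separate support either. The cluster was picked because it held the most members, and it is called the Cajal-Retzius-like cluster below as a label for these values.

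The 98 members in that cluster had the depth of other barcodes and were rich in Reln, while the members outside it were deeper. The 98 held 1030 to 18597 UMIs, with a median of 4568.5, and 4 to 297 Reln UMIs, with a median of 50. The 134 members outside it held 1516 to 132015 UMIs, with a median of 14933.5, and 3 to 304 Reln UMIs, with a median of 13.5. The 2 sets overlapped widely in Reln UMIs, but in CPM (each gene's share of all UMIs summed over the barcodes, scaled to 1000000) Reln stood at 12397 CPM (Poisson 95% interval 12102 to 12697) inside the cluster and at 1185 (1148 to 1224) outside it. Trp73 stood at 740.3 CPM (669.6 to 816) against 129 CPM (117 to 142). The 7765 other barcodes had a median of 4661 UMIs, a Reln level of 215 and a Trp73 level of 3.82 CPM.

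**Figure D1:**
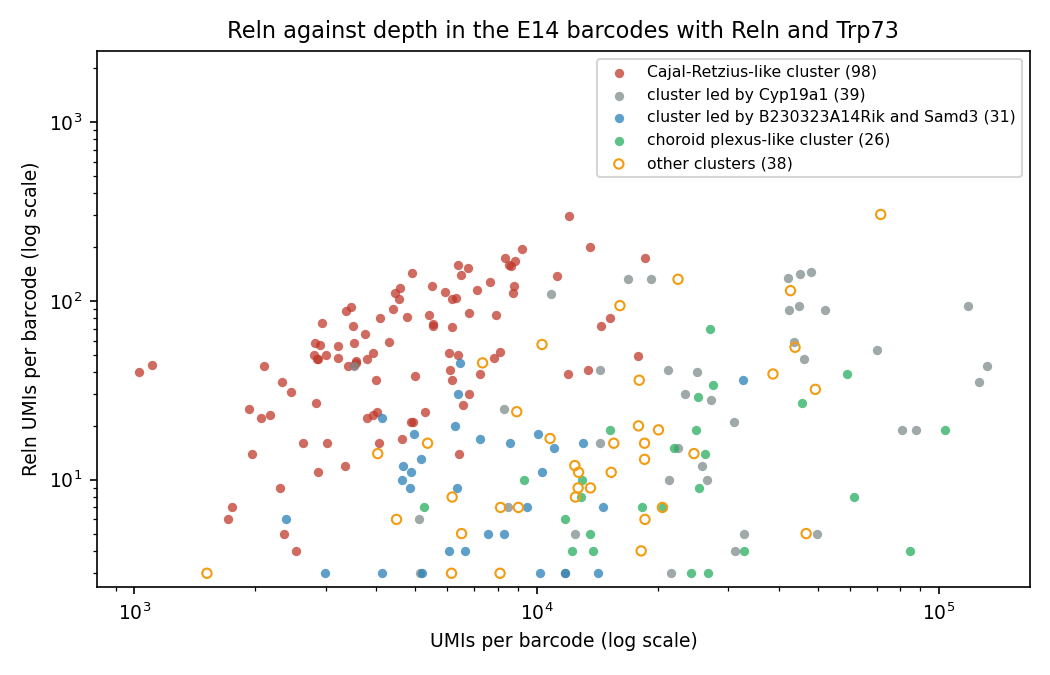
Reln UMIs (vertical, log scale) against all UMIs (horizontal, log scale) of the 232 E14 barcodes with Reln and Trp73, 1 point per barcode, coloured by cluster. The 98 points of the Cajal-Retzius-like cluster lie at the left, up to 18597 UMIs, while the deepest points, up to 132015 UMIs, belong to other clusters.

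Membership of the cluster rose with the Reln count. Gm10475 and Gm16110, inside Reln, were not withheld from the clustering, so this rise is not separate from how the cluster was formed. None of the 14 members with exactly 3 Reln UMIs was in the cluster (exact binomial upper bound 23.2%). It took 2 of 18 members with 4 to 5 Reln UMIs and 7 of 50 with 6 to 15. It took 16 of 43 members with 16 to 30 Reln UMIs (37.2%), 33 of 52 with 31 to 60 (63.5%) and 40 of 55 with 61 or more (72.7%, interval 59.0 to 83.9). The Trp73 count separated them less: 25 of 75 members with 1 Trp73 UMI were in the cluster (33.3%, interval 22.9 to 45.2), and 44 of 80 with at least 4 (55.0%, interval 43.5 to 66.2).

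**Figure D2:**
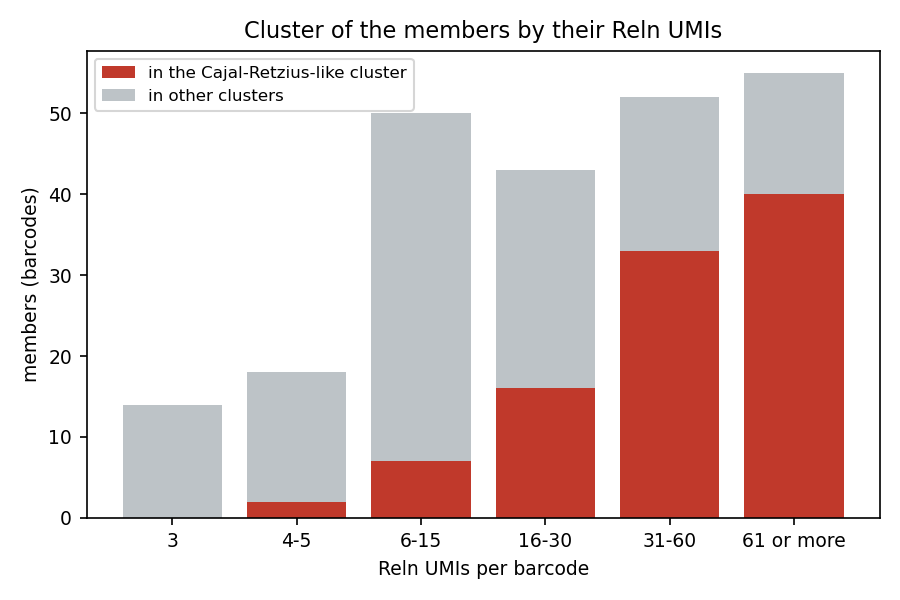
Number of the 232 barcodes (vertical) by their Reln UMIs (horizontal), split by cluster. The part in the Cajal-Retzius-like cluster grew from 0 of 14 barcodes at 3 Reln UMIs to 40 of 55 at 61 or more.

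On the Reln side, barcodes just inside and just outside the rule held little Smoc2. The 14 members with 3 Reln UMIs held Smoc2 at 0, Ebf3 at 13.0 and Ttr, the transthyretin gene of the choroid plexus, at 7497 CPM. The 14 barcodes with Trp73 and 2 Reln UMIs, which missed the rule, held Smoc2 at 12.8, Ebf3 at 57.5 and Ttr at 12753 CPM, and 1 of them was in the cluster. On the Trp73 side, the 75 members with 1 Trp73 UMI held Smoc2 at 34.8 and Ebf3 at 136 CPM, close to the 35.1 CPM of Smoc2 over all members. The 1172 barcodes with at least 3 Reln UMIs and no Trp73 UMI held Smoc2 at 1.71 and Ebf3 at 40.3 CPM, and 14 of them were in the cluster.

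The rule also left out 36 barcodes of the Cajal-Retzius-like cluster, of which 28 had no Trp73 UMI. These 36 had a median of 3120.5 UMIs and a median of 1 Reln UMI. The 14 of them with at least 3 Reln UMIs and no Trp73 UMI held Reln at 6554, Smoc2 at 143, Lhx1 at 318 and Gm10475 at 1076 CPM. The 22 with under 3 Reln UMIs held Smoc2 at 0 and Reln at 142 but Rspo3 at 2185 and Ebf3 at 397 CPM.

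The members outside the cluster fell mainly into 3 other clusters, none of which was led by Cajal-Retzius markers. A cluster led by Cyp19a1, whose highest ratio for any leading gene was 4.05, took 39 members with a median of 26507 UMIs, and their Reln stood at 1229 and Lhx1 at 159 CPM. Scrublet scores barcodes as likely doublets, and its automatic threshold marked 0 barcodes. The 653 highest scores, the number of doublets expected in the library, were marked instead. These marks took 18 of the 39 members and 38.7% of all barcodes of that cluster. A cluster led by B230323A14Rik, Samd3 and the glycine transporter gene Slc6a5 took 31 members with a median of 6461 UMIs, Reln at 1505, Lhx1 at 298 and Smoc2 at 15.7 CPM, and 3 of these were marked.

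The choroid plexus-like cluster, led by genes such as Clic6 and the serotonin receptor gene Htr2c, took 26 members. These had a median of 24562.5 UMIs and of 8.5 Reln UMIs, and held Ttr at 26814, Htr2c at 4293, Reln at 504 and Trp73 at 101 CPM. The 58 choroid plexus barcodes that were not members also held Trp73, at 60.5 CPM (interval 46.8 to 77.0), while their Reln was 140.3 CPM. A further 9 members fell into a cluster with Neurod2 and Neurod6 among its leading genes, 6 into one led by Gjb6 and Slc6a13, and the last 23 were spread over 13 clusters.

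In all, Scrublet scores marked 34 of the 134 members outside the Cajal-Retzius-like cluster (25.4%, interval 18.3 to 33.6), 3 of the 98 inside it (3.06%, interval 0.636 to 8.69) and 7.68% of the other barcodes. The median depth outside the cluster was also the highest of these sets, and the part of doublets and of depth in the outside members was not tested. Clustering the members alone gave 4 groups: 86 led by Eya2, Lrig3 and Nhlh2 (82 of them in the Cajal-Retzius-like cluster), 68 led by Pmch and Dchs2, 61 led by Cped1, Fli1 and the collagen gene Col3a1 with a median of 25155 UMIs, and 17 led by Gm4146 and Htr2c.

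As 1 set, the 232 members had both Smoc2 and choroid plexus genes among their leading genes. Of 10016 genes with enough UMIs (at least 50 in the members, or 50 expected at the level of the other barcodes), 65 were at least 4-fold higher in the members (0.649%) and 1 was at least 4-fold lower (0.00998%), with Reln and Trp73 left out. The leading genes were Smoc2 at 23.3-fold (interval 17.6 to 31.2), Gm16110, and Gmnc, a regulator of multiciliated cells, at 14.3-fold. Rspo3 was 8.40-fold higher, Pidd1 6.81-fold, Ttr 6.48-fold and Pde1a 5.95-fold. When each barcode's CPM was averaged instead of summing UMIs, which gives deep barcodes no more weight than others, Smoc2 was 40.4-fold higher, Gmnc 26.9-fold, Rspo3 17.5-fold and Pde1a 12.8-fold, and Ttr had a ratio of 3.53. Of the 65 genes, 56 passed the minimum only through their UMIs in the members. Of the listed factors, which include some named for other cortical neurons and progenitors, 1 of 29 with enough UMIs was among the 65. Of the reported Cajal-Retzius genes 2 of 15 were. That factor and those 2 genes all passed the minimum only through the members, so they could only be called higher. The gene that was lower was Mrc1, a macrophage receptor gene, at a ratio of 0.117.

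Of the 8 choroid plexus genes, 4 were at least 4-fold higher in the 232 barcodes (Ttr, Htr2c, Folr1 and Clic6), of which Folr1 and Clic6 passed the minimum only through the members. The median ratio over all 8 was 4.60, against 0.947 over the 26904 genes with a UMI in either set. In the 98 members of the Cajal-Retzius-like cluster 2 of the 8 genes had enough UMIs, of which 0 were higher and Htr2c was lower, and Kl and Prlr were at 0. Ttr there was 0 to 7 UMIs per nucleus with a median of 2, and the median was also 2 in the members outside the cluster and in the other barcodes. At least 50 Ttr UMIs were found in 19 of the 134 members outside the cluster and in 0 of the 98 inside it (exact binomial upper bound 3.69%).

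The rest of the description turns on the 98 members in the Cajal-Retzius-like cluster. They held 541677 UMIs in all, and 86 of 2738 genes considered were at least 4-fold higher in them than in the 7765 other barcodes (3.14%), while 108 were at least 4-fold lower (3.94%). The cluster was formed from these same genes, so the ratios describe it and are no test. These shares are the background of the list counts below. The median ratio was 1.000 over the 2738 genes considered. Over the 26807 genes with a UMI in either set, most of them sparse, it was 0.547, so list medians on these bases are not alike. Of the 86 higher genes, 61 passed the minimum only through their UMIs in these nuclei and could be called in that direction alone; of the 2350 genes that passed at the level of other barcodes 25 were higher and 108 lower.

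Several transcription factor genes that Cajal-Retzius neurons are known for were high. The 33 listed factors are named for Cajal-Retzius cells or for other cortical neurons and progenitors. Of them 14 had enough UMIs, and 6 of these were at least 4-fold higher and 0 lower. All 6 passed the minimum only through their UMIs in the 98 nuclei, and 0 of the 6 factors that passed at the level of other barcodes were higher, so the 6 are given as values and not as a result about the list. Over all 33 the median ratio was 2.25, against 0.547 over the 26807 genes with a UMI in either set. Ebf3, an early B-cell factor gene, was counted at 0 to 21 UMIs per nucleus with a median of 3, against a median of 1 in the outside members. It stood at 724 CPM (interval 654 to 799) inside the cluster, 96.4 outside it, 47.8 in other barcodes and 33.1 in the Neurod6 cortical excitatory barcodes, a 15.1-fold ratio to other barcodes (13.6 to 16.9). Its relative Ebf2 was 6.46-fold higher (5.44 to 7.62), while Ebf1 had a ratio of 1.56 (1.38 to 1.76), under the limit for a call.

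Lhx1, a LIM homeodomain factor gene, was counted at 0 to 14 UMIs per nucleus with a median of 2. Its level of 558 CPM was 8.20-fold that of other barcodes (7.27 to 9.22) and 41.0-fold that of cortical excitatory barcodes (24.8 to 72.7). Nhlh2, a helix-loop-helix factor gene, was found in 45 of 98 nuclei with at most 5 UMIs, and was 23.0-fold higher (17.9 to 29.2). Its relative Nhlh1 had 23 UMIs, too few to be called, at a ratio of 9.56 (5.94 to 14.7).

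Tbr1, a T-box factor gene shared with early cortical neurons, was 9.89-fold higher than in other barcodes (7.41 to 13.0), at 107 CPM against 47.6 in cortical excitatory barcodes. Emx2, a dorsal forebrain homeobox gene, was 10.0-fold higher (7.76 to 12.8), while Emx1 had 11 UMIs and a ratio of 1.70 (0.844 to 3.06). Sox5 stood at 225 CPM against 829 in other barcodes and 3016 in cortical excitatory barcodes, and Neurod6, which defined the cortical excitatory barcodes, at 7.38 CPM.

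Some genes of the cortical hem and its signals were high in the same nuclei, while others of the origin list were near 0. Rspo3, which encodes an R-spondin that strengthens Wnt signals, was counted at 0 to 48 UMIs with a median of 6, in 88 of 98 nuclei, and was 28.0-fold higher (26.0 to 30.2). Rspo2 was 4.78-fold higher, Lmx1a, a homeobox factor gene of the hem and roof plate, 5.14-fold. Each of these 3 passed the minimum only through its UMIs in the 98 nuclei, and the other 16 of the 19 genes of the origin list were too sparse, so their count says nothing of the list; over the 18 genes with a UMI in either set the median ratio was 1.21, and 9 were above 1. Lgr5, a receptor gene for R-spondins that is not on the list, was 28.9-fold higher (21.4 to 38.6). It was found in 24 of 98 nuclei with up to 10 UMIs. The Wnt gene Wnt7b, also not on the list, was 9.86-fold higher, and Wnt5a of the list, with 47 UMIs, had a ratio of 5.33 (3.89 to 7.16). Other patterning genes of the origin list were near 0: Dbx1 had no UMI in any set, and Wnt8b had 1 and Fgf15 0 UMIs in these nuclei.

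**Figure D3:**
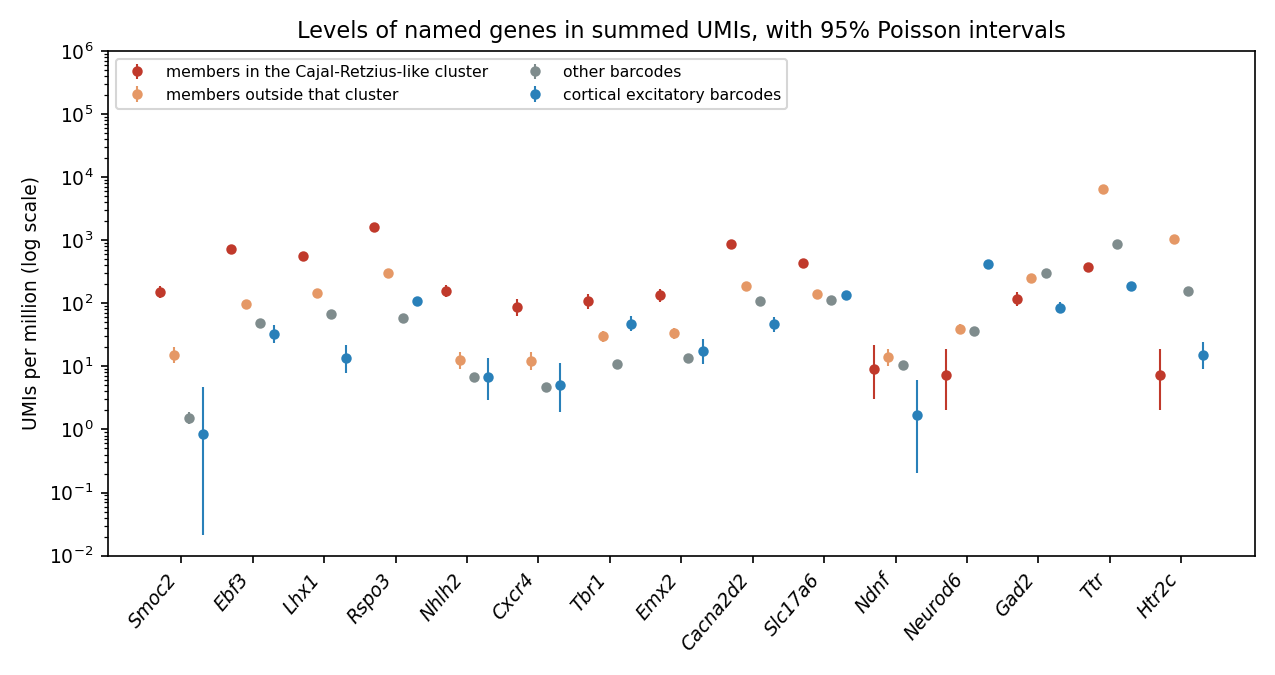
CPM (vertical, log scale) of 15 genes in the 98 members of the Cajal-Retzius-like cluster, the 134 other members, the 7765 other barcodes and the 123 cortical excitatory barcodes. Points are summed UMIs and bars are exact 95% Poisson intervals. Smoc2, Ebf3, Lhx1, Rspo3 and Nhlh2 are highest in the first set, and Ttr and Htr2c in the second.

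Of 20 reported Cajal-Retzius genes 12 had enough UMIs, and 7 of these were at least 4-fold higher and 0 lower. Over all genes considered 3.14% were higher and 3.94% lower. Of the 7 reported genes, 3 passed the minimum only through the 98 nuclei, Smoc2 among them. Of the 9 that passed at the level of other barcodes 4 were higher, beside 25 of 2350 over all genes. Over all 20 the median ratio was 4.21, and 14 were above 1. The median over the 26807 genes with a UMI in either set was 0.547. Smoc2 was counted in 35 of the 98 nuclei with up to 10 UMIs, and in 24 of the 134 outside members with up to 6. It stood at 153 CPM (interval 122 to 189.9) inside the cluster, 15.1 outside it and 1.51 in other barcodes, a 102-fold ratio (74.1 to 139.8). Tmem163 was 6.74-fold higher, the synaptic adhesion gene Clstn2 6.66-fold, Nectin1, whose product binds Cajal-Retzius neurons to migrating neurons, 4.38-fold and Edil3 4.04-fold. Cxcr4, the receptor gene that guides their migration along the meninges, had 47 UMIs in these nuclei, just short of the limit, in 34 of 98 nuclei with at most 3 UMIs, and a ratio of 18.1 (13.0 to 24.8).

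Other genes often named for these neurons did not pass the limits for a call. Ndnf was found in 4 of the 98 nuclei with at most 2 UMIs, at 9.23 CPM (3.00 to 21.5) against 10.6 in other barcodes and 24.1 in fibroblast barcodes. Calb2, the calretinin gene, had 12 UMIs and a ratio of 2.20 (1.13 to 3.87). Car10 and Snhg11, also on the list, had ratios of 0.292 and 0.299, neither past 4-fold.

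Since shares of nuclei with a UMI grow with depth, every barcode was also thinned to 1000 UMIs. After thinning, Ebf3 was found in 53.1% of the 98 nuclei (interval 42.7 to 63.2), 13.4% of the outside members, 3.48% of other barcodes and 1.78% of fibroblast barcodes, used as the background, with a median depth of 7175 UMIs. Without thinning the Ebf3 shares were 86.7%, 56.0%, 8.56% and 9.78%. Thinned Smoc2 was found in 20.4% of the 98 nuclei (12.9 to 29.7), 0.746% of the outside members (0.0189 to 4.09) and 0.142% of other barcodes, against 35.7%, 17.9% and 0.798% before thinning; in fibroblast barcodes it was 0 of 225 thinned (upper bound 1.63%) and 2.67% before.

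Thinned Lhx1 was found in 37.8% of the 98 nuclei, 17.9% of the outside members and 2.22% of fibroblast barcodes (unthinned 80.6%, 73.9% and 15.6%). Thinned Ndnf was found in 1.02% of the 98 nuclei and 1.13% of other barcodes. Fibroblast barcodes, at 9 of 225, are no background for Ndnf, since its level there was above that of other barcodes. UMIs of Ebf3, Lhx1 and Rspo3 together were found, unthinned, in 68 of the 98 nuclei (69.4%), 35.1% of the outside members, 0.670% of other barcodes and 1.33% of fibroblast barcodes.

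Of the reelin pathway genes beyond Reln itself, 10 had enough UMIs, and 0 of these were at least 4-fold higher or lower. Over all genes considered 3.14% were higher and 3.94% lower, so a count of 0 of 10 says nothing of the pathway. Their median ratio was 0.943, against 1.000 over all genes considered. The receptor gene Lrp8 had a ratio of 1.06 (0.848 to 1.31) and Vldlr, with 21 UMIs, 1.06 (0.655 to 1.63). Dab1 stood at 509.5 CPM against 1332 in other barcodes and 1790 in cortical excitatory barcodes, a ratio of 0.383 (0.339 to 0.431) to other barcodes. Adamts3, which encodes a protease that cleaves reelin, had 2 UMIs, at 3.69 CPM against 191 in cortical excitatory barcodes.

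Of 3 transmitter genes with enough UMIs 0 passed 4-fold, too few genes to compare with the shares over all genes. Their median ratio was 0.390, against 1.000 over all genes considered. Slc17a6, the vesicular glutamate transporter gene, was counted in 74 of the 98 nuclei at up to 11 UMIs with a median of 2, with a ratio of 3.88 to other barcodes (3.40 to 4.42), just under the limit for a call. Slc17a7 gave 0 UMIs. Slc17a6 without the GABA-synthesis gene Gad2 was found in 61 of the 98 nuclei (62.2%, interval 51.9 to 71.8), Gad2 without Slc17a6 in 1, and both in 13. Outside the cluster both were found in 57 of 134 members (42.5%, interval 34.0 to 51.4), nuclei with a higher median depth.

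Among receptor and chloride genes, 0 of 21 were at least 4-fold higher and 4 lower, beside 3.14% and 3.94% of all genes considered. Their median ratio was 0.409, against 1.000 over all genes considered. The lowered genes were Grm7 (ratio 0.118), Grm3 (0.232), Gabrb1 (0.185) and Htr2c (0.0478, 4 UMIs). Outside that list, the muscarinic receptor gene Chrm3 gave 1 UMI in 541677, at a ratio of 0.0165. Grm2, a presynaptic glutamate receptor gene, was too sparse to call at 14 UMIs, with a ratio of 10.5 (5.59 to 18.3). The potassium-chloride exporter gene Slc12a5 had 10 UMIs, at 18.5 CPM against 81.2 in other barcodes.

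Against other barcodes, 4 of 22 channel genes were at least 4-fold higher and 2 lower, beside 3.14% and 3.94% of all genes considered. Most of the 4 encode accessory subunits of calcium channels. Against cortical excitatory barcodes 2 of 23 channel genes were higher and 2 lower. Over all 30 listed the median ratio to other barcodes was 0.845, against 0.547 over all genes with a UMI in either set. Cacna2d1 was counted at up to 103 UMIs per nucleus with a median of 15 and was 5.15-fold higher (4.92 to 5.38). Cacna2d2 had a median of 5 UMIs, with a UMI in 94 of 98 nuclei, and was 8.04-fold higher (7.31 to 8.83), and Cacna2d3 6.17-fold (5.88 to 6.47). Cortical excitatory barcodes, with a median depth of 7576 UMIs, also held Cacna2d1, in 116 of 123 with a median of 9 UMIs. Their medians were 0 for Cacna2d2 and 1 for Cacna2d3. Kcnj3, an inward rectifier potassium channel gene, was the fourth at 4.10-fold and passed the minimum only through the 98 nuclei. The lowered channel genes were Cacna1e at a ratio of 0.170 and Kcnd2 at 0.216.

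Of 35 migration and guidance genes, 3 were at least 4-fold higher, 2 of them passing only through the 98 nuclei, and 4 lower. Over all genes considered 3.14% were higher and 3.94% lower. The median ratio over all 47 listed was 0.794, against 0.547 over all genes with a UMI in either set. The adhesion gene Cntn2 was 6.29-fold higher, Cdh4 4.82-fold and Nectin1 4.38-fold. The netrin receptor gene Dcc, at up to 346 UMIs per nucleus with a median of 37, stood at 10661 CPM against 3265 in other barcodes, a 3.27-fold ratio (3.18 to 3.35). Its median was 38 UMIs in the cortical excitatory barcodes, which had a higher median depth. Unc5b, another netrin receptor gene, was 9.06-fold higher and not on the list. Plxna2 (0.242), Slit3 (0.226), Tenm2 (0.222) and Tenm3 (0.230) were lower.

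The p53 list held 2 genes with enough UMIs. Trp53inp1, a p53 and p73 target, was 5.67-fold higher (4.20 to 7.50) and passed only through its 52 UMIs, and Sesn1 had a ratio of 1.45. The targets Cdkn1a (11 UMIs, ratio 9.30, interval 4.52 to 17.2), Sesn2 (8 UMIs, 12.2, interval 5.05 to 25.4), Ccng1 (12 UMIs, 3.31) and Mdm2 (48 UMIs, 2.10) were too sparse to call. Trp53 itself had a ratio of 0.999 (0.515 to 1.75), Bax of 0.715 and Pmaip1 and Fas had no UMI. Of 4 cell death genes considered 0 were past 4-fold, with Ntrk2 highest at a ratio of 2.51.

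Of the cell cycle list 1 gene could be called and it was lower. Top2a gave 5 UMIs at a ratio of 0.0660, and Mki67, too sparse to call, had a ratio of 0.290 (0.139 to 0.534). Of 16 neuronal genes 0 were past 4-fold, beside 3.14% higher and 3.94% lower over all genes considered. Their median ratio was 0.900, against 1.000 over all genes considered, with a range from Rbfox1 at 0.266 to Elavl4 at 1.95. In the matrix and secreted list, 2 of 9 genes were higher (Smoc2 and Edil3) and 3 lower (Nell2, Nxph1 and Fgf14). The median ratio over all 24 listed was 0.536, close to the 0.547 over all genes with a UMI in either set.

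**Figure D4:**
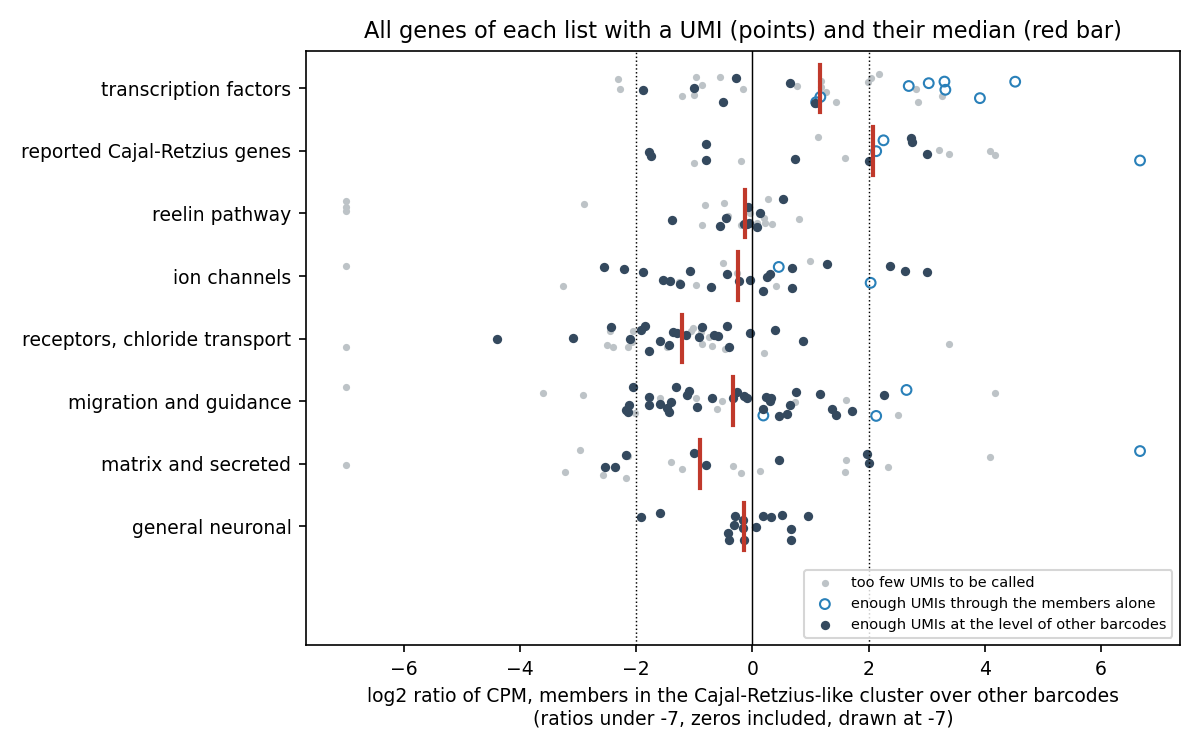
Log2 ratio (horizontal) of CPM in the 98 members of the Cajal-Retzius-like cluster over the 7765 other barcodes, for all genes with a UMI in 8 lists (vertical); each point is a gene, open where it had enough UMIs only through the 98 nuclei and grey where it had too few, red bars are list medians and dotted lines the 4-fold limits. The 6 factors past the upper limit with enough UMIs are all open points, and the reelin pathway genes with enough UMIs lie between the limits.

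Most markers of other cell types were sparse in the 98 nuclei. The fibroblast genes Col1a1, Col1a2 and Col3a1 gave 1, 3 and 1 UMIs and Dcn, Foxc1 and Foxd1 0. No endothelial gene exceeded 7 UMIs, and of the microglia list Csf1r, Ptprc, Mrc1 and Tyrobp were at 0 while Cx3cr1 gave 37 UMIs and P2ry12 11; no gene of these 3 lists had enough UMIs to be called. Of the radial glia list Slc1a3 was lower at a ratio of 0.0916 and Pax6 had a ratio of 2.14. Of the intermediate progenitor list Elavl2 alone had enough UMIs, at a ratio of 1.26 that is not past 4-fold, and Eomes gave 45 UMIs. Over all 8 genes of that list the median ratio was 1.59, and 7 were above 1. The 3 GABAergic genes considered, Gad1, Gad2 and Dlx6os1, had a median ratio of 0.390, against 1.000 over all genes considered. The 8 erythroid genes had a median of 0.647, against 0.547 over all genes with a UMI in either set. None of either list was past 4-fold among those with enough UMIs. Of the cortical excitatory list, Tbr1 and Nfia were at least 4-fold higher than in other barcodes (Nfia at 4.01-fold), while Fezf2 gave 2 UMIs. In the thalamic list Gbx2 and Shox2 were at 0 and Tcf7l2 had a ratio of 0.120, with Lef1 at 3.32.

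Against the 123 cortical excitatory barcodes, chosen by Neurod6, 100 of 2695 genes were at least 4-fold higher in the 98 nuclei (3.71%) and 107 lower (3.97%). Gmnc had 119 UMIs and Lgr5 61 where the cortical excitatory barcodes had 0, so Gmnc was at least 86.2-fold and Lgr5 at least 44.2-fold higher against a floor of 3 counts over that set. The exact lower bounds of these ratios, which allow for counting error in both sets, were 69.0 and 34.8. Lmx1a was 182-fold higher and Smoc2 180.3-fold, each over 1 UMI with lower bounds of 31.9 and 31.5. Ebf2 was 23.1-fold higher and Eya2 58.2-fold. Stxbp6 (ratio 0.0152), Adamts3 (0.0193) and Chrm3 (0.00894) were among the lowest. For all 232 members the same comparison gave 335 of 10129 genes higher (3.31%) and 53 lower (0.523%), led by Gmnc, Lmx1a and Mecom.

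The 94 barcodes with Tbr1 and Lhx1 or Lhx5, which had at most 2 Reln UMIs and no Trp73 by the rule, were chosen by factors that are also high in the 98 nuclei. In the 98 nuclei 82 of 2737 genes were at least 4-fold higher than in them (3.00%) and 123 lower (4.49%). Ccbe1, a secreted matrix gene of lymphatic growth, was 252-fold higher over 1 UMI (lower bound 44.4), Gmnc 232-fold, also over 1 UMI (lower bound 40.9), Lrig3 29.8-fold and Eya2 26.1-fold. Schip1 (0.0570) and Pde4b (0.0585) were among the lowest. For all 232 members the counts were 201 of 10115 genes higher (1.99%) and 13 lower (0.129%).

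Set directly against the 134 members outside the cluster, 54 of 2726 genes were at least 4-fold higher in the 98 inside (1.98%) and 95 lower (3.48%). Nhlh2 was 12.3-fold higher (8.38 to 18.5), Smoc2 10.2-fold, Eya2 9.97-fold and Ebf3 7.51-fold. Mecom and Rbm47 gave 0 UMIs inside the cluster against 624 and 399 outside it, and Htr2c had a ratio of 0.00714. The outside members in turn had 54 of 9439 genes at least 4-fold higher than other barcodes (0.572%) and 1 lower (0.0106%), led by Gmnc at 13.7-fold, Ttr at 7.51-fold, Htr2c at 6.70-fold and the ciliary gene Lrriq1 at 6.03-fold. Gmnc was also high in the 98 inside, at 17.9-fold the level of other barcodes (14.6 to 21.8). In the outside members Rspo3 was 5.07-fold higher than in other barcodes. Smoc2 there had a ratio of 10.0 on 48 UMIs, too few to be called, and Lhx1 a ratio of 2.15.

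Antisense genes inside Reln and Ebf3 were among the leading genes. Gm10475 (chr5:21910931-21954014, plus strand) and Gm16110 (chr5:22334442-22336118, plus strand) are annotated as antisense genes inside Reln (chr5:21884454-22344702, minus strand), on GRCm38 in GENCODE vM21. For each 100 Reln UMIs there were 11.5 Gm10475 UMIs (interval 10.6 to 12.4) in the 98 nuclei, 11.4 (10.3 to 12.6) in the outside members and 12.4 (11.7 to 13.1) in other barcodes. In cortical excitatory barcodes, with 43 Reln UMIs, there were 34.9 (18.0 to 64.1), outside the range of the other sets. Gm16110 gave 0.774 UMIs for each 100 of Reln in the 98 nuclei (0.578 to 1.02) and 0.615 in other barcodes (0.481 to 0.775). Gm10578 (chr7:137234683-137242609, plus strand), antisense inside Ebf3 (chr7:137193673-137314445, minus strand), gave 15.3 UMIs for each 100 of Ebf3 in the 98 nuclei and 15.1 in other barcodes. Whether the counting used strand is not given in the sources used here, so reads of these genes and of their partners cannot be told apart, and they are not counted as separate evidence.

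CCCNNGGG occurred in the 300-base windows (250 before to 50 after a start) of 14 of the 53 genes that were at least 4-fold higher in the 98 nuclei and had a RefSeq window, 26.4% (interval 15.3 to 40.3), against 15.4% of 27025 genes with a window. The 14 included Ebf3, Cacna2d3, Lmx1a, Foxo1 and Foxo3. The E-box CAGCTG was in 26.4% against 18.3%, the homeodomain letters TAATTA in 9.43% against 6.12%, with Emx2 and Tbr1 among the 5 genes, and the T-box letters AGGTGTGA in 0 of 53 against 1.48%. Both strands were searched, and overlaps of 1 motif with another were allowed. For all 232 members CCCNNGGG was in 4 of 43 genes, 9.30% (2.59 to 22.1). A match in these letters is not a binding site.

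The 98 nuclei also differed among themselves. The dispersion index is the spread of a gene over nuclei relative to counting error, which gives 1. The median dispersion index over 2352 genes was 1.31, and the highest were Sox2ot at 60.2, the neurexin gene Nrxn3 at 34.7, Gm38505 at 33.8 and Dcc at 24.3. Sox2ot, a long non-coding RNA overlapping Sox2, had 519 UMIs in 49 of the 98 nuclei, of which 289 were in 1 nucleus. Clstn2 was at 0 in the lower quartile and at 17 UMIs in the upper quartile, with 96 in the highest nucleus. Prkg1 and Adarb2 were each found in 11 nuclei. Over all 232 members the highest indices were those of Ttr, at 710.3, the embryonic globin gene Hbb-y, at 172, Ptgds, at 164, and Htr2c, at 102.

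In the adult hippocampus library, the same rule found 7 of 1406 barcodes (0.498%, interval 0.200 to 1.02), with 2035 to 14799 UMIs. They had 12 to 46 Reln UMIs with a median of 19 and 1 to 9 Trp73 UMIs, and no Ttr or Gad2 UMI. Ndnf was found in all 7, at 4 to 17 UMIs with a median of 6 and 1587 CPM (interval 1225 to 2023), where the 98 embryonic nuclei had 9.23. Rspo3 had 1 UMI and Smoc2 2 in the adult barcodes, at 24.4 (0.618 to 136) and 48.8 (5.91 to 176) CPM, where the embryonic nuclei had 1639 and 153. Ebf3 (293 CPM), Cacna2d2 (391) and Clstn2 (2100) were found in 4, 6 and 7 of the 7. Other adult barcodes held Ndnf at 17.7, Ebf3 at 0.989, Cacna2d2 at 10.6 and Clstn2 at 810.4 CPM. They held Rspo3 at 32.4 and Smoc2 at 61.1 CPM, so neither gene stood higher in the 7. Age, region and library cannot be told apart between the embryonic and adult values. No cell barcode of the 232 was shared with the adult library, while 1 barcode was shared by the libraries as a whole.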

How the data were processed

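Nuclei were dissociated from frozen sections after spatial barcoding and profiled by droplet single-nucleus RNA sequencing. The deposited counts are whole UMIs per gene and barcode, made by the authors with Cell Ranger 7.0.1 for the embryo and 6.1.2 for the adult (per the file headers), on mm10 with intronic reads (per the study's methods). The methods name a background-removal step for the embryo, while the deposited matrix carries a Cell Ranger header, so whether it was applied to these counts is not known. The embryo matrix held 9037 barcodes, 32285 genes and 58924407 UMIs, and members held 1030 to 132015 UMIs.

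Members, comparison sets and gene lists were chosen with earlier results of these data known. UMIs were summed over barcodes and scaled to 1000000 (CPM), with exact Poisson intervals for levels, exact conditional binomial intervals for ratios and Clopper-Pearson intervals for shares, all at 95%. With 1 library per tissue no test was run. A gene was called at a 4-fold ratio if it had at least 50 UMIs in the members or 50 expected there. Named genes were the markers, the genes with the highest and lowest ratios, all genes of the lists and the most variable genes. Other barcodes were classed by marker UMIs, in a set order: fibroblast by Col3a1 alone, choroid plexus by Ttr with Htr2c, and, among those with under 3 Reln UMIs, cortical excitatory by Neurod6. These classes are as coarse as their rules.

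Clustering (Seurat 5.3.0 in R 4.3.3) used counts scaled to 10000 and logged, 2000 variable genes without Reln and Trp73, 30 principal components and resolution 0.8. Comparisons of the members in the Cajal-Retzius-like cluster, and the counts of list genes by how they passed the minimum, were added after the data were seen. Scrublet (scanpy 1.11.5) marked 0 barcodes by its automatic threshold, so the 653 highest scores were marked, 37 of them members; these were kept. Other steps used Python 3.11.15, numpy 2.4.6, scipy 1.17.1 and pandas 2.3.3. The ratio and call steps were tested on simulated data. Promoter sequences came from RefSeq.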

Additional observations from a re-analysis of the deposited data

How the results depend on the processing

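The count of genes at least 4-fold higher in all members, 65, depended on which barcodes and genes entered. It was 24 with at least 5 Reln UMIs, 21 with at least 2 Trp73 UMIs, 239 at a fold of 2, 9 at a fold of 8, 124 with a minimum of 20 UMIs per gene and 34 with a minimum of 100. The count of lower genes, 1, was 3 with at least 2 Trp73 UMIs, 2 without likely doublets, 34 at a fold of 2, 2 and 0 under the same gene minimums, and 8 when each barcode's CPM was averaged. Further subsets of members were chosen after seeing the data: without the members of the choroid plexus-like cluster 21 genes were higher and 5 lower, and with only the members of the Cajal-Retzius-like cluster 108 were lower. Ttr turned from a ratio of 6.48 to 0.187 and 0.437 under these 2 subsets. For the Cajal-Retzius-like cluster, also added after seeing the data, the 86 higher genes became 228 at a fold of 2, 27 at a fold of 8 and 136 with a minimum of 20 UMIs, and the 108 lower genes became 327, 23 and 228, 45 with a minimum of 100 and 166 with averaged CPM. The fold and the minimum change the counts by construction; for the other settings the cause was not tested. The 98 members in that cluster were all found together again at a lower and a higher resolution and with more variable genes. The Smoc2 ratio ranged from 10.0 to 102, Ebf3 from 2.02 to 15.1 and Ndnf from 0.871 to 1.39 over all settings.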
